A study of Mus musculus with 2 samples.

Results

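In a subcutaneous mouse breast tumour library, 1082 of 10835 kept cells were chosen by their UMI counts as Ccr2 and Vcan monocytes with low C1q, a share of 9.99% (exact 95% interval 9.43 to 10.6). A UMI, or unique molecular identifier, marks 1 captured RNA molecule. To pass, a cell needed at least 3 UMIs of the myeloid genes Lyz2 and Csf1r together. It also needed at least 5 UMIs of Ccr2, Vcan, Plac8 and Ly6c2 together, with the C1q genes C1qa, C1qb and C1qc under 0.1% of its UMIs. Cells with S100a8, S100a9, Csf3r and G0s2 at 2% of UMIs or more were left out, as were cells with 10 or more UMIs of Cxcl9, Cxcl10, Cxcl11 and Rsad2. These values chose the cells, so the levels of those genes are a description. The rule's steps left 7317 cells after the neutrophil genes, 5241 after Lyz2 and Csf1r, 1958 after the monocyte genes and 1151 after C1q.

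The series held 2 single-cell RNA libraries, 1 per group. The tumours grew from 4T1, a breast cancer line of the mouse, and the samples are labelled WT. The treated group received PCN (PATCH in the series' design text), and the control group received PBS in its place. The control's counts were not analysed here, and the labels used give no dose, mouse strain, age or number of animals. With 1 library nothing could be tested across replicates. Ratios below are a description of these cells, and intervals are 95% and cover counting error only.

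Classical monocytes are made in bone marrow, leave it through the chemokine receptor CCR2 and enter inflamed tissue and tumours. There they can lose Ly6c and Ccr2 and take up macrophage genes, among them those of C1q, the starting protein of the classical complement pathway. Chil3 and F13a1, a secreted chitinase-like protein and the A subunit of coagulation factor XIII, are commonly used to mark mouse classical monocytes and were the only given markers that the rule did not use.

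The cells were set against the 4714 other kept cells with at least 3 UMIs of Lyz2 and Csf1r. Of these, 555 had the neutrophil genes at 2% or more and 205 had the interferon-induced genes at 10 UMIs or more. A further 722 had C1q at 0.1% or more together with 5 or more UMIs of the monocyte genes, 2174 had C1q at that level with fewer monocyte gene UMIs, and 1058 were low for both. Median depth was 6916 UMIs in the monocytes and 6948 in the other cells. The 5 comparison classes had medians between 3647 UMIs (neutrophil genes) and 11273 UMIs (C1q with monocyte genes). The authors' list of kept cells gave 33 barcodes to both libraries.

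Markers of other cell types went against the label in some of the cells. Clusters 4, 6 and 12 of the clustering given last, with 94, 67 and 28 cells, were led by genes of macrophages, dendritic cells and neutrophils. Macrophage genes were also among the leading genes of cluster 3 (170 cells, Mrc1 and Ms4a7) and cluster 9 (51 cells, Apoe and Ms4a7). Cluster 1, the largest with 227 cells, had Spp1 among its leading genes and the lowest Plac8, 333 CPM. Fibroblast genes marked another set. Of the 1082 cells, 51 (4.71%) had 10 or more UMIs of the fibroblast genes Col1a1, Col1a2, Col3a1, Dcn and Pdgfra. The counts were far apart, since 42 of these cells had 100 or more such UMIs while 2 cells had 5 to 9. Tyrobp, an adaptor protein of myeloid receptors that the rule did not use, was detected in 39.2% of the 51 cells and in 98.6% of the other 1031. Ccr2, a gene of the rule, was detected in 11.8% of the 51 cells and 88.1% of the 1031, shares that the rule itself helped to set. Vcan, which encodes a matrix proteoglycan that fibroblasts also make, was detected in 90.2% of the 51 cells and Plac8 in 86.3%. Fibroblast marker cells with under 3 UMIs of Lyz2 and Csf1r had 632 CPM of Vcan and 748 CPM of Plac8 (CPM, the summed UMIs of a class scaled to a total of 1000000), with 2.32 CPM of Ccr2. Median depth was 14553 UMIs in the 51 cells and 6771 in the 1031. Values below are for all 1082 cells, with the value without fibroblast marker cells on both sides wherever it differs by over 1.5 times.

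**Figure D1:**
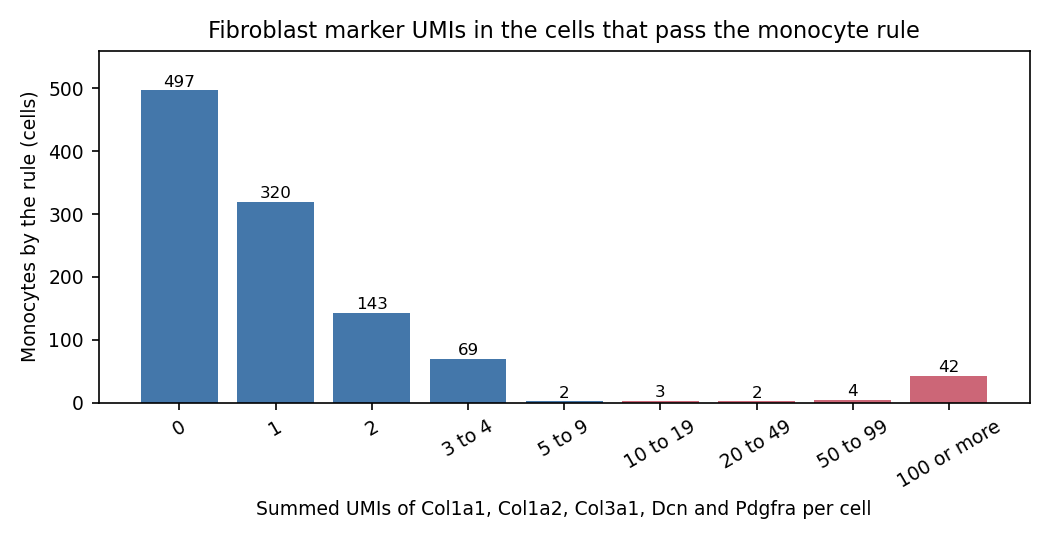
Bars give the number of the 1082 cells of the rule (vertical axis) by their summed UMIs of 5 fibroblast genes (horizontal axis), with 10 UMIs or more in red. The cells fall into 1031 with few such UMIs and 51 with many, 42 of them at 100 or more.

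Among the genes the rule used, Plac8, a small cysteine-rich protein, was the most abundant of the 4 in 545 of the 1082 cells. Vcan was the most abundant in 269, Ccr2 in 263 and Ly6c2, a surface protein of classical monocytes, in 5. Ccr2 was detected in 84.5% of the cells, Plac8 in 80.5%, Vcan in 78.2% and Ly6c2 in 23.3%. All 4 genes were detected in 175 cells, 3 of them in 448, 2 in 380 and a single gene in 79. Plac8 by itself reached the 5 UMIs of the gate in 586 cells and Ly6c2 by itself in 43. Ly6c2 has a near-identical neighbour, Ly6c1, and reads shared by such copies can be split or lost, so its level is uncertain.

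Ly6c2 summed to 86.7 CPM in the monocytes. It reached 230 CPM in the interferon class, 81.1 in the neutrophil-gene class and 22.2 in the C1q class with monocyte genes, and was at or under 2.30 CPM in both classes with few monocyte gene UMIs. Ccr2 stood at 490 CPM in the monocytes, close to the 441 CPM of the C1q class with monocyte genes, and at 55.2 to 252 CPM in the other 4 classes.

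Chil3 and F13a1 were both more abundant in the monocytes than in the other cells pooled. Chil3 summed to 285 CPM in the monocytes and 75.7 CPM in the other cells, a ratio of 3.76 (3.56 to 3.97). F13a1 summed to 507 CPM in the monocytes and 266 CPM in the other cells, a ratio of 1.91 (1.84 to 1.98). By class, Chil3 was at 342 CPM in the neutrophil-gene cells, 109 in the cells low for both, 78.5 in the interferon class and 39.8 to 41.5 in both C1q classes. F13a1 was at 253 to 309 CPM in the 3 classes without neutrophil or interferon genes and at 104 to 168 CPM in those 2.

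At equal depth, both genes were again found more often in the monocytes than in the C1q classes. After each cell was thinned to 1000 UMIs, 18.2% of the monocytes had a UMI of Chil3 (16.0 to 20.7), and 47.5% did before thinning. The thinned share of Chil3 was 9.0% in the cells low for both and 3.56 to 4.16% in the C1q classes. In the neutrophil-gene cells it was 12.5%, under the monocytes, while their CPM was above, so no order is read between them. Chil3 has a near-identical copy, Chil4, and its counts carry the uncertainty given for Ly6c2. F13a1 was found in 32.7% of thinned monocytes (29.9 to 35.5; 64.6% unthinned) and in 20.2% of the C1q cells with few monocyte gene UMIs. None of 280 fibroblast marker cells outside the myeloid gate had a UMI of either gene after thinning. That allows a share of up to 1.07% by a limit of 3 counts and 1.31% by the exact interval. These cells were chosen for under 3 UMIs of Lyz2 and Csf1r, which also leaves out cells with much free myeloid RNA. The low share was thus partly set by the choice and gives no limit for free RNA. Before thinning, 1.77% of these cells had a UMI of Chil3 and 4.61% of F13a1, at a median depth of 11016 UMIs. Other genes named here were found in more of these thinned cells, with Spp1 in 27.5%, Apoe in 19.3%, Il1b in 10.7% and Ccl8 in 9.29%. The thinned monocytes had Spp1 in 63.6%, Apoe in 61.8%, Il1b in 74.2% and Ccl8 in 3.79%. Ccl8 was uneven in the clustering given last, with 292 CPM in cluster 4, 95.4 CPM in cluster 3 and 16.4 CPM in cluster 2. Cluster 10, made up of fibroblast marker cells, had 111 CPM. How much of the Ccl8 in the monocytes is free RNA was not tested.

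**Figure D2:**
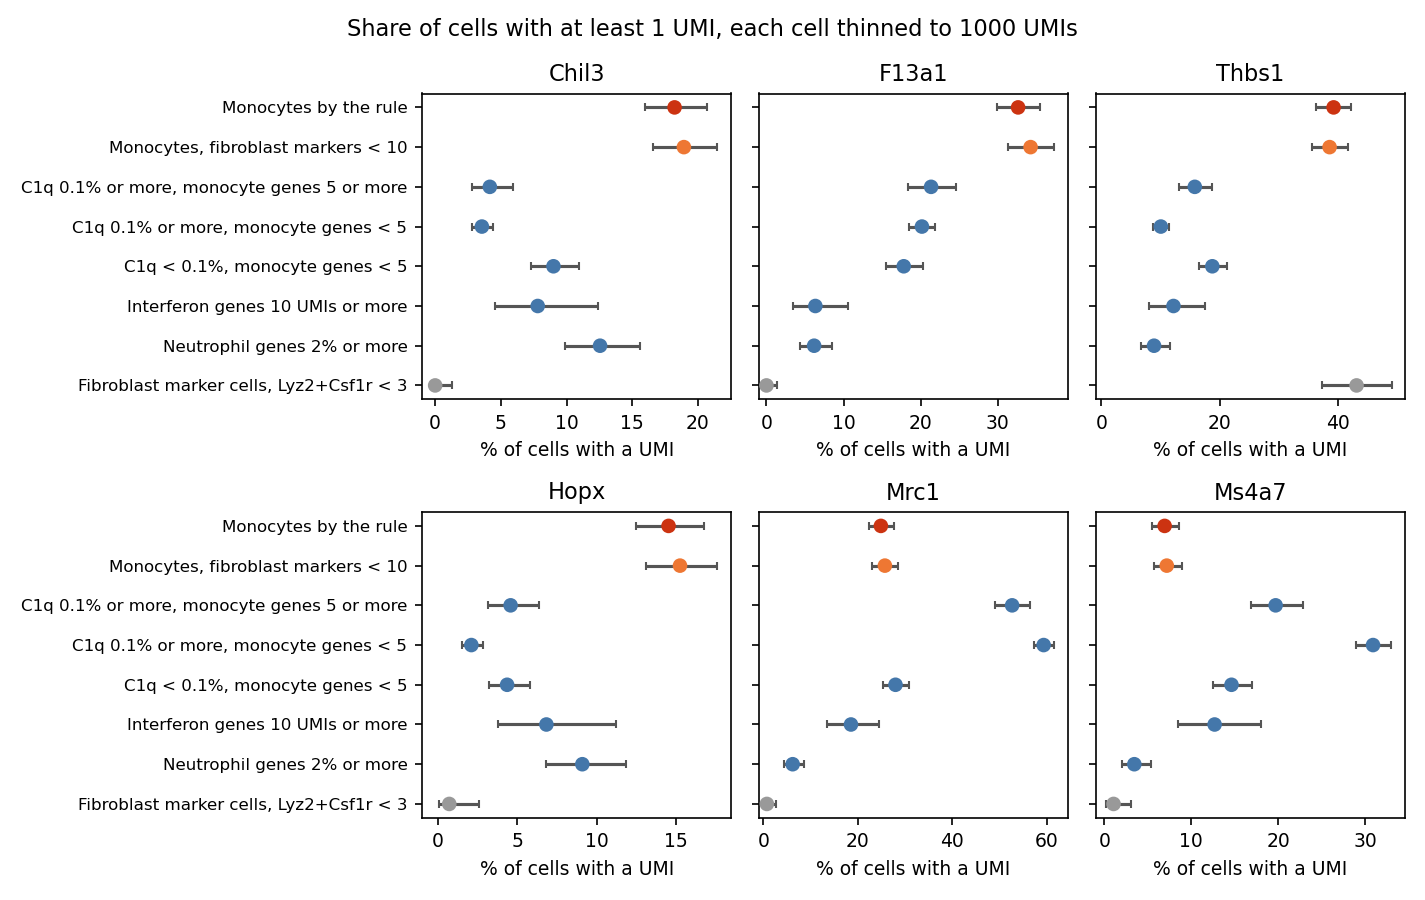
Points give the share of cells with at least 1 UMI after thinning each cell to 1000 UMIs (horizontal axes, %), for 6 genes and 8 classes, with exact 95% intervals. F13a1 and Hopx are highest in the monocytes, and Mrc1 and Ms4a7 in the C1q classes. The Chil3 share is above the C1q classes in the monocytes, and no order is read between monocytes and neutrophil-gene cells, whose Chil3 CPM is higher. Thbs1 is found in 43.2% of fibroblast marker cells and 39.3% of monocytes.

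The promoter windows of Chil3 and F13a1 are shown because these 2 were the only given markers outside the rule. Both genes came with the label, so their levels are not an independent check of it. The windows run from 250 bases before to 50 bases after a RefSeq start (GRCm38.p6) on the minus strand. The build of the deposited counts is not given in the sources used here. Capitals mark AGGAAGT or its reverse complement ACTTCCT, which hold the core letters of sites of ETS-family factors such as PU.1, searched on both strands. They were found in 9.35% of 32851 RefSeq promoter windows of this length.
Chil3, chr3:106167515-106167814: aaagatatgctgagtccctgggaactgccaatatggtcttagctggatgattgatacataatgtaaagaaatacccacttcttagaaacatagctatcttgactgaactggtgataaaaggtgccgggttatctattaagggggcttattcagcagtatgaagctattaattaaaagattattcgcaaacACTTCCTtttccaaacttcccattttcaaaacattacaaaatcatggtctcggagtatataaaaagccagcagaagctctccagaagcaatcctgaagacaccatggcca
F13a1, first listed start, chr13:37050195-37050494: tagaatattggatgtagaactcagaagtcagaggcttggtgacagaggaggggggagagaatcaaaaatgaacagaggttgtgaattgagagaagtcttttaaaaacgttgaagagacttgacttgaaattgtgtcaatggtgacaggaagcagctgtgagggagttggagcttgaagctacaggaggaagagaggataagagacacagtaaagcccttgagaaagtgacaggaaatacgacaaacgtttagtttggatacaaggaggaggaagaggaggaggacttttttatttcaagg
F13a1, second listed start, chr13:37049164-37049463: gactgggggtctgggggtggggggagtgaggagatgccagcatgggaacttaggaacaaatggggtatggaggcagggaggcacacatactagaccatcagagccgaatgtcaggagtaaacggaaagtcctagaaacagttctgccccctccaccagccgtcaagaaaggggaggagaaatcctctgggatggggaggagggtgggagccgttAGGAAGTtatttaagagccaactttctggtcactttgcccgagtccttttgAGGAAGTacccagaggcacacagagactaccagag
The Chil3 window held 1 match, the second F13a1 window 2 and the first none. The motif was picked after the sequences were read, and a match is a description of letters.

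Across all genes with at least 50 UMIs over both groups, 657 of 12875 (5.1%) were at least 2-fold higher in the monocytes and 861 (6.69%) at least 2-fold lower. List counts below for all cells stand against these shares. Without fibroblast marker cells on either side, 205 of 12577 (1.63%) were at least 2-fold higher and 1254 (9.97%) at least 2-fold lower. With the neutrophil-gene cells left out of the other cells, the counts were 697 (5.47%) and 875 (6.86%) of 12746. The median log2 ratio over all genes was −0.10 with all cells and −0.15 without the fibroblast marker cells. None of the 15 genes with the largest ratios among all 1082 cells was among the 15 largest once the fibroblast marker cells were removed. They were led by Abi3bp (39.0 times the level of the other cells) and Dcn, a collagen-binding proteoglycan (27.6 times), and included the chemokine Cxcl12 (20.3 times). Without the fibroblast marker cells, Abi3bp stood at a log2 ratio of −0.86, Dcn at −1.20 and Cxcl12 at −0.35.

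Without those cells the leading gene was Dmkn, which encodes the secreted protein dermokine, at 54.0 CPM in the monocytes and 5.06 CPM in the other cells, a ratio of 10.7 (8.96 to 12.7). Spink2 came next at 4.80 times, with 21.1 CPM in the monocytes and 4.39 CPM in the other cells. These leading genes were taken after values were seen. Thbs1, which encodes the matrix glycoprotein thrombospondin 1, had 959 CPM in the monocytes and 213 CPM in the other cells (4.51 times, 4.37 to 4.66). Plcb1, a phospholipase C that acts downstream of G protein-coupled receptors, had 766 CPM in the monocytes and 170 CPM in the other cells. Hopx, a small homeodomain protein that does not bind DNA itself, had 190 CPM in the monocytes against 46.0 CPM. The adenosine receptor genes Adora2a and Adora2b were 4.29 and 3.74 times as abundant, with 38.3 and 65.8 CPM in the monocytes. Met, the receptor of hepatocyte growth factor, reached 99.3 CPM in the monocytes and 26.5 CPM in the other cells, and Abcc4, an exporter of cyclic nucleotides and prostaglandins, 92.3 CPM and 24.8 CPM. Fibroblast marker cells outside the myeloid gate held 861 CPM of Thbs1, near the level of the monocytes, but 0.332 CPM of F10 and 1.66 CPM of Chil3.

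The lowest ratios belonged mostly to neutrophil genes, and the other cells include the 555 with neutrophil genes at 2% or more. Ngp, a neutrophil granule protein, had 2.78 CPM in the monocytes and 379 CPM in the other cells. Camp, the gene of the antimicrobial peptide cathelicidin, had 1.97 CPM and 236 CPM, and Retnlg 19.8 CPM and 654 CPM. Of 12 neutrophil markers, 10 were at least 2-fold lower in the monocytes. The monocytes without fibroblast marker cells were also set against all 2896 cells with C1q at 0.1% or more, whose fibroblast marker cells were kept. There, 2 of the markers were at least 2-fold higher and 1 at least 2-fold lower. In that comparison 339 of 11733 genes (2.89%) were at least 2-fold higher and 915 (7.8%) at least 2-fold lower. Ifitm6, an interferon-inducible membrane protein of monocytes and neutrophils, also differed by class, with 71.0 CPM in the monocytes and 206 CPM in the other cells. It stood at 2818 CPM in the neutrophil-gene class and at 10.02 to 53.8 CPM in the other 4 classes.

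Other markers of classical monocytes differed in both directions. Of the 12 on the list with enough UMIs that the rule did not use, 3 were at least 2-fold higher in the monocytes and 2 at least 2-fold lower, with a median log2 ratio of 0.71. Without the fibroblast marker cells 4 were at least 2-fold higher and 1 at least 2-fold lower. Those monocytes were also set against the cells with C1q at 0.1% or more. There, 7 of the 12 were at least 2-fold higher and 1 at least 2-fold lower, with a median log2 ratio of 1.43. Over all genes the shares in that comparison were 2.89% and 7.8%. Ms4a4c, a tetraspanning membrane protein of Ly6C-high monocytes, had 202 CPM in the monocytes and 68.5 CPM in the other cells (2.95 times, 2.77 to 3.14). After thinning to 1000 UMIs, Ms4a4c was found in 36.1% of the interferon class and 19.2% of the monocytes. Fn1, fibronectin, differed little, with 3048 CPM in the monocytes and 2188 CPM in the other cells. Of 11 markers of non-classical, patrolling monocytes, 3 were at least 2-fold higher and 1 at least 2-fold lower. The one lower was Cx3cr1, the fractalkine receptor, with 28.3 CPM in the monocytes and 129 CPM in the other cells (0.219 times, 0.192 to 0.249). Nr4a1, a nuclear receptor needed for patrolling monocytes, had 383 CPM in the monocytes and 251 CPM in the other cells.

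Macrophage genes were mostly lower. Of 15 macrophage markers, 8 were at least 2-fold lower in the monocytes and 0 at least 2-fold higher, with a median log2 ratio of −1.14. Apoe, the lipid carrier apolipoprotein E, had 1833 CPM in the monocytes and 6286 CPM in the other cells (0.292 times, 0.287 to 0.296). The cells low for both gates had 1903 CPM of Apoe, close to the monocytes, while both C1q classes had 6828 and 8784 CPM. Ms4a7, a macrophage membrane protein, had 69.8 CPM in the monocytes and 291 CPM in the other cells. Folr2, a folate receptor, and Cd163, the scavenger receptor of haemoglobin bound to haptoglobin, had 31.2 and 27.9 CPM in the monocytes and 129 and 109 CPM in the other cells. Mrc1, the mannose receptor, was 0.520 times as abundant, with 514 CPM in the monocytes and 990 CPM in the other cells. Fcgr1, the high-affinity IgG receptor, was higher, with 177 CPM in the monocytes and 132 CPM in the other cells.

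Some of the genes for handling engulfed lipid, iron and protein were lower as well. Over all genes, 6.69% were at least 2-fold lower and 5.1% at least 2-fold higher. On the list of macrophage receptor and lipid genes, 10 of 24 were at least 2-fold lower and 2 at least 2-fold higher (1 without the fibroblast marker cells), with a median log2 ratio of −0.95. Of 13 iron and haem genes, 3 were at least 2-fold lower, among them the iron exporter gene Slc40a1 with 2.08 CPM in the monocytes and 13.6 CPM in the other cells. Of 19 lysosome genes, 3 were at least 2-fold lower and 0 at least 2-fold higher, with a median log2 ratio of −0.50. Ctsb, cathepsin B, had 1461 CPM in the monocytes and 3085 CPM in the other cells, and Lgmn, the lysosomal protease legumain, 1079 CPM and 2122 CPM. Cd63, a tetraspanin of late endosomes, had 587 CPM in the monocytes and 1414 CPM in the other cells.

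Some inflammatory genes were higher. Of 18 inflammatory cytokine and NF-kB genes, 5 were at least 2-fold higher in the monocytes and 1 at least 2-fold lower, with a median log2 ratio of 0.41. Il1b, the cytokine interleukin 1 beta, had 3617 CPM in the monocytes and 1779 CPM in the other cells (2.03 times, 2.01 to 2.06), and the neutrophil-gene class was higher still at 4756 CPM. Ptgs2, the enzyme that commits arachidonic acid to prostaglandins, had 772 CPM in the monocytes and 284 CPM in the other cells (2.72 times, 2.64 to 2.80), and none of the 5 classes exceeded 419 CPM. Il6 had 146 CPM in the monocytes and 52.1 CPM in the other cells. Inhba, a subunit of activin A, had 134 CPM in the monocytes and 49.2 CPM in the other cells, though the cells low for both gates had 146 CPM. Both were also found in fibroblast marker cells outside the myeloid gate, at 138 CPM of Il6 and 147 CPM of Inhba.

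Among 17 chemokine ligands, 1 was at least 2-fold higher and 2 at least 2-fold lower. Over all genes the shares were 5.1% and 6.69%, so counts this small are not read as a result about the list. Cxcl3, which attracts neutrophils through CXCR2, had 1168 CPM in the monocytes and 504 CPM in the other cells (2.32 times, 2.26 to 2.37). Cxcl2, of the same group, was the most abundant chemokine with 11474 CPM in the monocytes and 6391 CPM in the other cells. Ccl2, the ligand of CCR2, had 1848 CPM in the monocytes and 1060 CPM in the other cells. Ccl8 was far lower, with 60.6 CPM in the monocytes and 832 CPM in the other cells (0.0728 times, 0.0667 to 0.0794), and reached 1228 CPM in the C1q class with few monocyte gene UMIs.

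Of 15 receptors for chemokines and other attractants, 1 was at least 2-fold higher and 4 at least 2-fold lower. Over all genes 5.1% were higher and 6.69% lower by that much, so the count of 1 is not read as a result about the list. The one higher was Ltb4r1, the high-affinity receptor of leukotriene B4, with 89.2 CPM in the monocytes and 28.4 CPM in the other cells (3.15 times, 2.86 to 3.46). After thinning to 1000 UMIs, Ltb4r1 was found in 16.2% of the neutrophil-gene cells (13.2 to 19.5) and 9.81% of the monocytes (8.10 to 11.7). Cxcr4, the receptor of CXCL12, had 57.6 CPM in the monocytes and 124 CPM in the other cells. Among 16 adhesion genes, 2 were at least 2-fold higher and 0 at least 2-fold lower. Itgb7, the integrin beta 7 chain, had 36.4 CPM in the monocytes and 14.4 CPM in the other cells. Itgam, the CD11b chain, had 426 CPM in the monocytes and 256 CPM in the other cells.

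Coagulation genes included some of the largest ratios. Of 16, 6 were at least 2-fold higher in the monocytes (4 without the fibroblast marker cells) and 0 at least 2-fold lower, with a median log2 ratio of 0.91 (0.60 without those cells). F10, coagulation factor X, had 170 CPM in the monocytes and 44.1 CPM in the other cells (3.85 times, 3.59 to 4.14), and was at 26.7 to 73.3 CPM in each of the 5 classes. Serpinb2, plasminogen activator inhibitor 2, had 37.2 CPM in the monocytes and 4.28 CPM in the other cells (8.70 times), and 16.2 CPM against 4.09 CPM without the fibroblast marker cells (3.95 times, 3.10 to 5.03). Plat, tissue plasminogen activator, had a ratio of 7.44 in all cells and 1.14 (0.660 to 1.87) without them. Of the complement genes outside C1q, 4 of 15 were at least 2-fold higher and 1 at least 2-fold lower in all cells, against 0 and 2 without the fibroblast marker cells. Serping1, the inhibitor of C1 proteases, had a ratio of 11.6 with them and 0.599 (0.345 to 0.982) without, and C4b of 2.68 with them and 0.512 (0.314 to 0.798) without.

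MHC class II molecules present antigen to CD4 T cells. Of 9 MHC class II genes, 0 passed 2-fold in either direction, and 2 were at least 2-fold higher without the fibroblast marker cells, with median log2 ratios of 0.74 and 0.85. H2-Aa had 767 CPM in the monocytes and 426 CPM in the other cells (1.80 times, 1.75 to 1.85), and the interferon class had 1655 CPM. The level was uneven within the monocytes, with 6922 and 2621 CPM in clusters 6 and 5 of the clustering given last and 16.5 to 216 CPM in clusters 1, 2, 4, 7, 8, 10 and 12. None of 16 MHC class I genes passed 2-fold, with a median log2 ratio of −0.06. Of 31 interferon genes outside the rule, 1 was at least 2-fold higher and 4 at least 2-fold lower. The shares over all genes were 5.1% and 6.69%. The one higher was Ifi209, a member of the nuclear Ifi200 family, with 79.3 CPM in the monocytes and 30.5 CPM in the other cells. After thinning to 1000 UMIs, Ifi209 was found in 19.5% of the interferon class and 9.25% of the monocytes. The rule left out cells high for 4 interferon genes and cells high for neutrophil genes. This list summed to 11687 CPM in the interferon class, 13292 CPM in the neutrophil-gene class and 5114 CPM in the monocytes. The low end of the list can be partly fixed by the rule, and how far was not tested. Without fibroblast marker cells and against the C1q cells, 8 were at least 2-fold higher (2.89% over all genes) and 0 at least 2-fold lower (7.8%).

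Several lists had 0 or 1 gene past 2-fold against the other cells pooled. None of 20 oxidative phosphorylation genes and none of 20 S100, annexin and cytoskeleton genes passed 2-fold, with median log2 ratios of −0.07 and 0.27. Without fibroblast marker cells and against the C1q cells, 5 of the 20 S100, annexin and cytoskeleton genes were at least 2-fold higher. None was at least 2-fold lower, and the median log2 ratio was 0.46. Over all genes 2.89% were at least 2-fold higher in that comparison. Of 23 glycolysis and hypoxia genes, 1 was at least 2-fold higher and 0 were without the fibroblast marker cells. Of 17 genes of suppressive myeloid cells, Thbs1 alone passed 2-fold, while Arg1, arginase 1, had 1079 CPM in the monocytes and Spp1, osteopontin, 6393 CPM. The cell cycle list stood apart from these. Of its 22 genes, 5 were at least 2-fold lower and 0 at least 2-fold higher. Its median log2 ratio was −0.74, against −0.10 over all genes. Mki67, a protein of dividing cells, had 24.7 CPM in the monocytes and 47.4 CPM in the other cells.

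**Figure D3:**
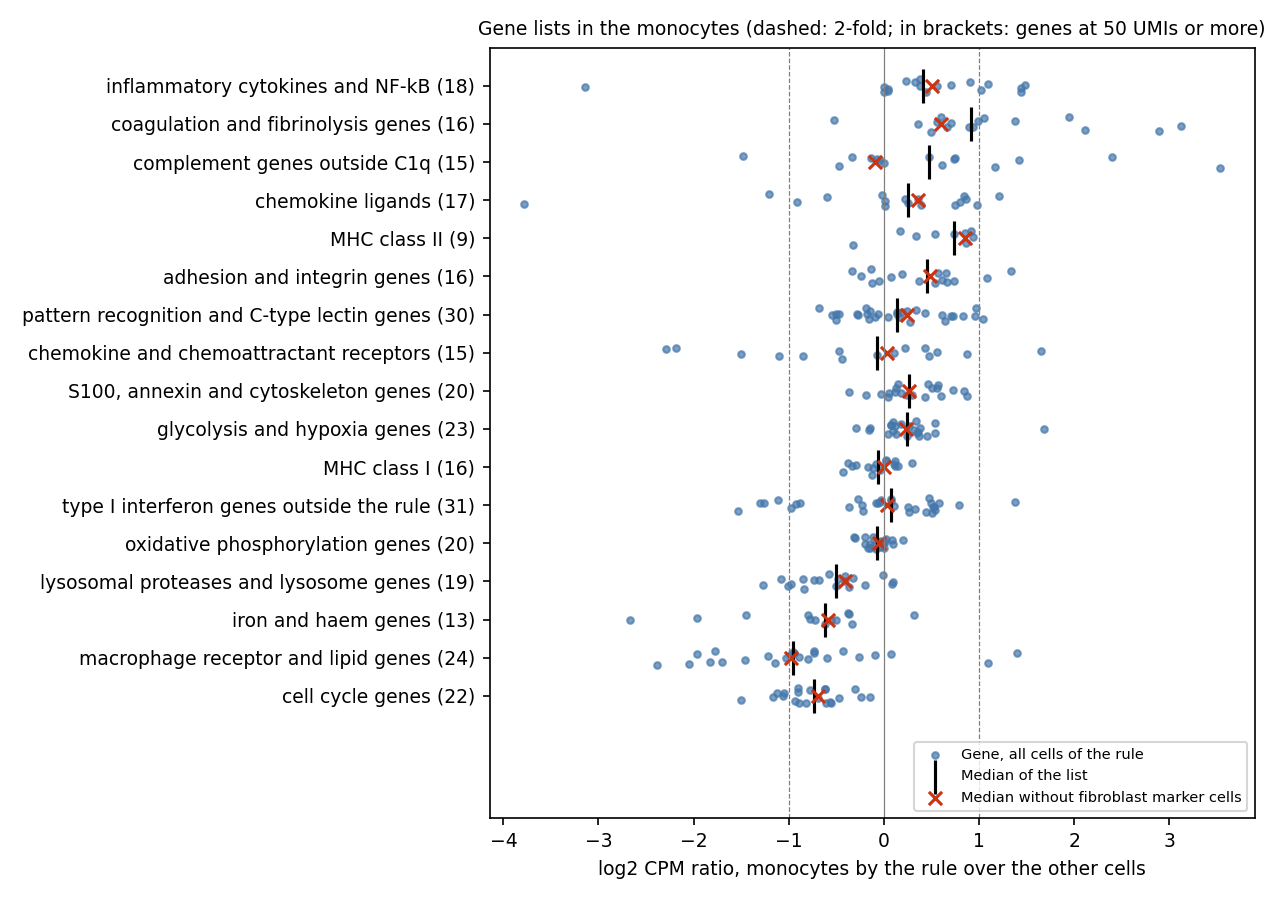
Points give the log2 CPM ratio of single genes, monocytes by the rule over the other cells (horizontal axis), for 17 gene lists (rows); black bars and red crosses mark list medians with and without fibroblast marker cells. Medians run from −0.95 for macrophage receptor and lipid genes to 0.91 for coagulation genes, and among the 17 lists the red cross stands farthest from the bar for complement genes (0.47 with and −0.09 without), followed by coagulation genes.

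Along C1q, the levels of many genes formed a slope across the limit of the rule. All 1804 cells that met the other conditions were placed in 5 bins of C1q share, with fibroblast marker cells left out of the sums. The bins held 484 cells at 0, 598 above 0 and under 0.1%, 322 from 0.1 to under 0.5%, 251 from 0.5 to under 1% and 149 at 1% or more. Median depth went up along the bins, 5649, 8277, 9776, 11993 and 12347 UMIs, and its part in the slope was not tested. Of 569 list and leading genes, 76 were lower in each next bin and 47 higher in each next bin. The leading genes were picked for their ratio to other cells that include the bins at 0.1% or more. Part of their order was therefore fixed by that choice. The shares over all genes were not computed.

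Chil3 had 356, 280, 72.5, 29.3 and 7.67 CPM in the 5 bins, low to high C1q. Thbs1 went through 1196, 818, 344, 188 and 93.6 CPM, and F13a1 through 600, 519, 466, 211 and 194 CPM. Thbs1 was lower at every step of the range, and the largest step for F13a1 lay at 0.5%. Inhba had 173, 105, 59.2, 23.8 and 4.93 CPM. F10 had 217, 165, 68.5, 61.4 and 37.2 CPM, and Hopx 206, 180, 66.9, 49.7 and 35.6 CPM. Cxcl3 went through 1420, 1158, 531, 243 and 127 CPM, and S100a6, a calcium-binding protein, through 3867, 3593, 2379, 1111 and 901 CPM.

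In the other direction, Ccl8 had 35.2, 69.4, 375, 466 and 1557 CPM, the steepest gain among genes detected in all 5 bins. Apoe had 1784, 2061, 3694, 6777 and 12581 CPM, and Cx3cr1 had 23.02, 32.6, 59.5, 250 and 336 CPM. Ms4a7 stepped at the limit of the rule, with 64.3, 79.4, 211, 222 and 312 CPM. Trem2, a lipid-sensing receptor of macrophages, had 156, 197, 248, 294 and 396 CPM, and Mertk, a receptor for the uptake of dying cells, 73.8, 84.4, 163, 175 and 229 CPM.

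**Figure D4:**
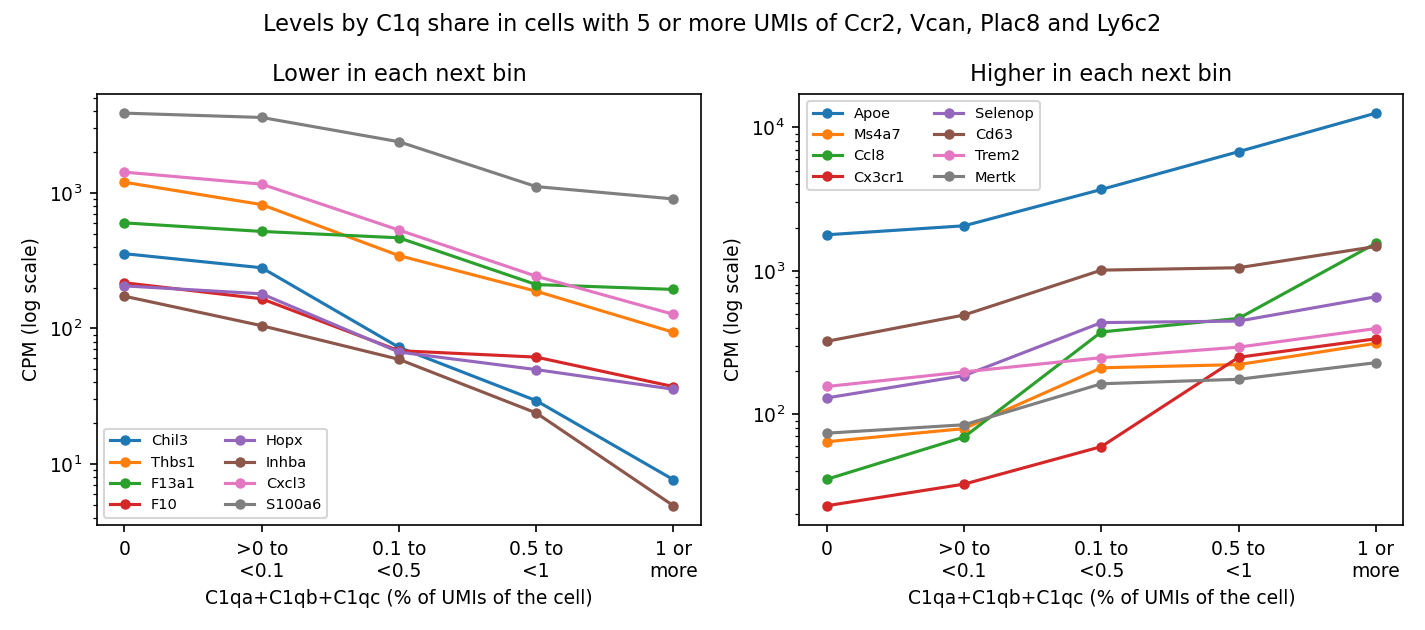
Lines give CPM (log scale) of 16 genes over 5 bins of C1q share (horizontal axis, % of UMIs) in cells with 5 or more UMIs of Ccr2, Vcan, Plac8 and Ly6c2, without fibroblast marker cells. Left, genes lower in each next bin, such as Chil3 (356 to 7.67 CPM); right, genes higher in each next bin, such as Apoe (1784 to 12581 CPM).

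Cells on both sides of the limits differed more in Chil3 than in F13a1 or Apoe. At a monocyte gene sum of 5, 78 cells had 254 CPM of Chil3 and 262 CPM of F13a1, and at a sum of 4, just outside, 90 cells had 96.1 CPM of Chil3 and 316 CPM of F13a1. The 88 cells with C1q from 0.05 to under 0.1% had 245 CPM of Chil3 and 2020 CPM of Apoe. The 96 cells from 0.1 to under 0.2% had 97.5 CPM of Chil3 and 2288 CPM of Apoe.

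The 1082 cells were not uniform, and clustering split them into 12 groups of 28 to 227 cells. The genes that lead a cluster made it, so they are a description. Cluster 1, with 227 cells (21.0%), had 14710 CPM of Spp1 and 2107 CPM of Arg1, and the lowest Plac8 at 333 CPM. Cluster 2, with 175 cells, and cluster 7, with 57 cells, were high for Chil3 (779 and 1072 CPM) and Thbs1 (2309 and 1784 CPM). Cluster 7 also had 418 CPM of Mmp8, a collagenase, and 28.7 CPM of Arg1.

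Clusters 3 and 4, with 170 and 94 cells, were high for Mrc1 (1550 and 1933 CPM) despite low C1q. Cluster 3 had 596 CPM of the chemokine Ccl12 and cluster 4 had 228 CPM of Cd163 and 210 CPM of Folr2. Cluster 9, with 51 cells, had the highest Apoe at 5583 CPM. Macrophage genes were not at 0 in the low-C1q cells, and clusters 3, 4 and 9 held the highest levels of Ms4a7 (201, 230 and 153 CPM).

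Cluster 5, with 73 cells, held the highest Plac8 and Ly6c2 (5388 and 707 CPM) together with 303 CPM of the interferon-induced GTPase gene Gbp2. Cluster 6, with 67 cells, had 6922 CPM of H2-Aa and 105 CPM of Cd209a, a lectin of monocyte-derived dendritic cells, and the lowest Chil3 among the 11 clusters other than cluster 10, 32.9 CPM. Cluster 8, with 52 cells, had 4008 CPM of Arg1, 1080 CPM of the elastase gene Mmp12, 145 CPM of Nos2, the inducible nitric oxide synthase, and 790 CPM of Chil3. Cluster 11, with 42 cells and a median of 13826 UMIs, carried 199 CPM of Mki67. Cluster 12, with 28 cells, was led by genes of neutrophils, among them Hdc, which makes histamine.

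Cluster 10 held 46 cells, all of them fibroblast marker cells, with 13891 CPM of Col1a1, 15.01 CPM of Ccr2 and 9.004 CPM each of Chil3 and F13a1. F13a1 was present in the other 11 clusters at 251 to 1029 CPM, and Ccr2 at 277 to 730 CPM. In clusters 1, 5 and 6, F13a1 (251, 258 and 252 CPM) lay under its level in the other cells given above. Cluster 11 was near that level with 268 CPM, so F13a1 did not set these clusters apart from the other cells. At a higher resolution 16 clusters formed, and clusters 5, 6, 7, 10, 11 and 12 were kept with all their cells together.

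**Figure D5:**
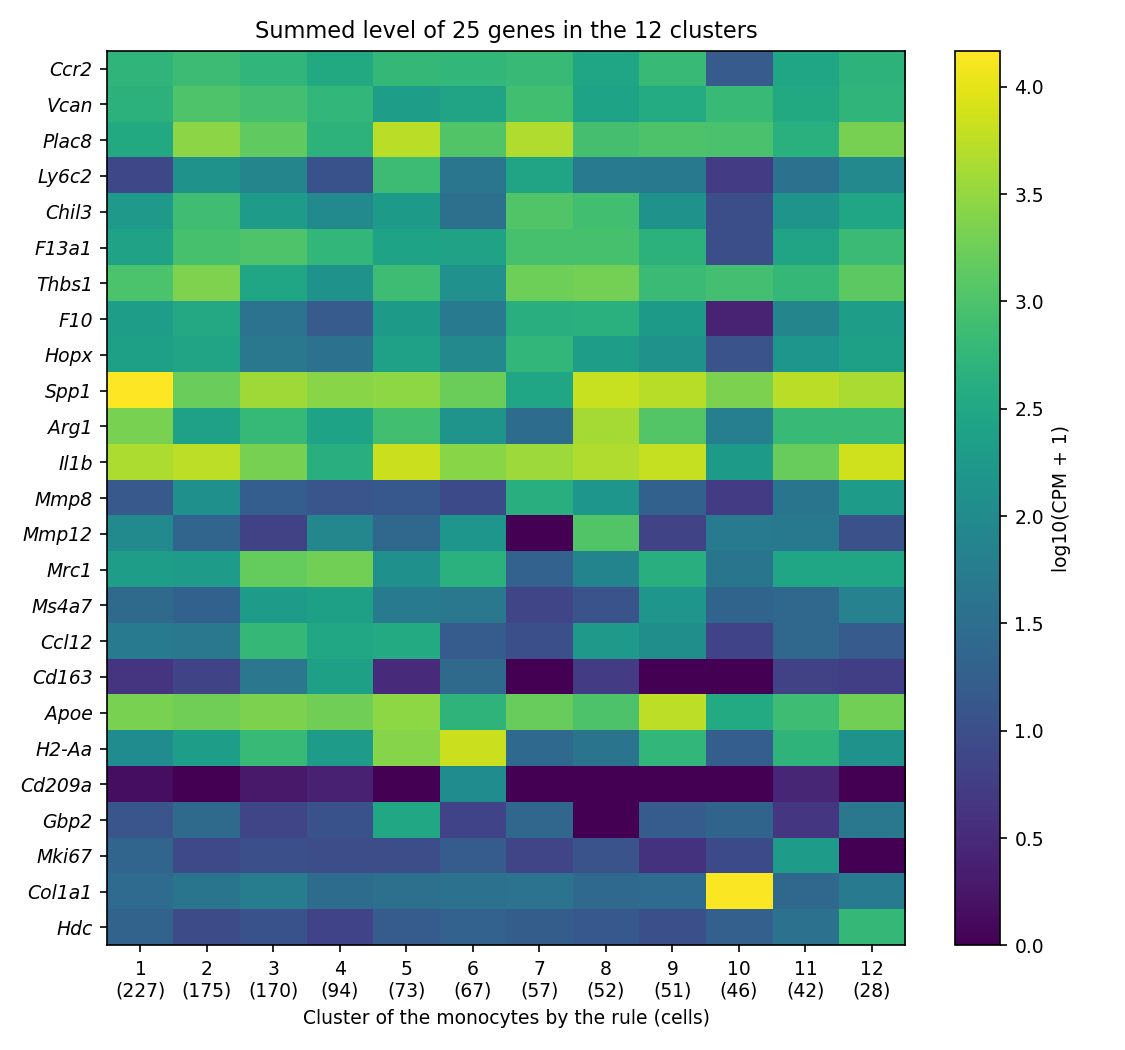
Colours give the summed level as log10(CPM + 1) of 25 genes (rows) in the 12 clusters of the monocytes (columns, cell number in brackets). Ccr2 and F13a1 are lowest in cluster 10, which holds Col1a1 at 13891 CPM, and Spp1, Mrc1, H2-Aa and Plac8 peak in different clusters.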

How the data were processed

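The authors deposited raw counts, 1 UMI count for each gene in each barcode of a Chromium 3′ v3 library. Per the file headers, Cell Ranger 8.0.1 wrote the matrix, and the submitters' processing notes name STAR beside it. The genome build was not given in the sources used here. The deposited cell list and gene table gave the kept cells and the gene symbols. All 10835 barcodes listed for the treated library were in the matrix, against 37 of 11643 control barcodes, so it was read as the treated library. Kept cells held 60652188 UMIs, 500 to 19989 per cell.

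The monocytes, gene lists and tests were chosen with earlier results of these data known. UMIs were summed over cells, scaled to CPM and divided, with exact conditional intervals for ratios, exact Poisson intervals for sums and exact Clopper-Pearson intervals for shares, which cover counting error only. For log2 ratios 0.5 counts were added to each sum. Genes of the rule were left out, and a gene counted as called at a ratio of at least 2 or at most 0.5 with 50 UMIs or more. The text names markers, the 15 genes with the largest and 10 with the smallest ratio at 200 UMIs or more, and up to 6 genes per list, in each case a subset picked after values were seen. Also picked that way were the leading genes without fibroblast marker cells, Arg1, Spp1, Ccl2, Cxcl2, S100a6, and the genes given for clusters.

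Clusters used the Leiden method (leidenalg 0.10.2, scikit-learn 1.9.0, numpy 2.4.6) on 25 components of 1500 variable genes, 15 neighbours and resolution 0.8, with 1.5 as the higher resolution. Scrublet in scanpy 1.11.5 marked 0 cells at its own threshold, so it had not worked, and no cell was removed. An alternative left out the 5% of cells with the highest scores. Free RNA was not subtracted. The ratio step was tested on simulated data.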

Additional observations from a re-analysis of the deposited data

Results flagged for a closer look

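Among the 1474 barcodes of the matrix that the authors did not keep, 184 passed the rule of the monocytes (12.5%, exact 95% interval 10.8 to 14.3). This signal lies in data that no comparison above uses. Of the 184 barcodes, 179 had 20000 UMIs or more, a depth that no kept cell reached, and the median was 28536 UMIs. The fibroblast genes reached 10 UMIs in 117 of them. The other 67 had 124 CPM of Chil3 and 165 CPM of F13a1, against 308 CPM and 549 CPM in the 1031 kept monocytes without fibroblast genes. Whether these barcodes are single cells was not tested.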

How the results depend on the processing

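The share of 9.99% became 11.8% with the monocyte genes at 3 UMIs or more, 8.02% at 8 or more, 9.17% with C1q under 0.05% and 10.9% under 0.2%. The number of genes at least 2-fold higher (657) was 1206 over all barcodes of the matrix, 312 at a minimum of 200 UMIs and 176 with each cell thinned to 1000 UMIs, where fewer genes reach the minimum. The number at least 2-fold lower (861) was 1305 at a minimum of 20 UMIs, 420 at 200 and 446 with thinning. Both counts stayed within 1.5 times under the other planned settings.

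Alternatives without fibroblast marker cells were chosen after seeing the data. They gave 205 genes higher, and 339 against cells with C1q at 0.1% or more. The latter left fibroblast marker cells out of the monocytes only. Such cells stayed in the C1q classes, 5 with the monocyte genes at 5 UMIs or more and 3 with fewer. On the log2 scale, named genes that then changed direction against all other cells included Serping1 (−0.71), C4b (−0.94), Abi3bp (−0.86), Dcn (−1.20) and Cxcl12 (−0.35). Against the C1q cells, with their fibroblast marker cells kept, they included Serping1 (−1.77), C4b (−1.03), Abi3bp (−1.25), Dcn (−2.03), Cxcl12 (−1.01), Plat (−0.25) and Ifitm6 (1.65). Ifitm6 also changed direction against comparison cells under 2% neutrophil genes (1.61). These settings changed which cells were compared. Which cells lie behind each change of direction was not tested. Of 212 genes followed, named or not, 19 were called and changed direction without fibroblast marker cells, and 27 against the C1q cells. The count was 3 with comparison cells under 2% neutrophil genes, 3 with thinning and 0 under the other settings followed. The 5 fibroblast genes were all at least 2-fold higher with all cells. Their median log2 ratio was −0.30 without fibroblast marker cells and −1.44 against the C1q cells. No paired analysis was possible because the series has 1 library per group and 1 was analysed. Genes near the minimum of 50 UMIs are the least precise.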
